A study of Rattus norvegicus with 12 samples.

Results

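The anti-Rtl1 miRNAs are the mature products of 5 hairpins, miR-127, miR-136, miR-337, miR-433 and miR-434, which lie close together in the imprinted Dlk1-Dio3 region of the rat genome. They were chosen by name: every small RNA called rno-miR-127, rno-miR-136, rno-miR-337, rno-miR-433 or rno-miR-434 with an arm suffix, which gave 10 of the 685 miRNA names in the count tables. Each hairpin was represented by both arms, the 5p arm from the left side of its stem and the 3p arm from the right side. All 10 passed the filter on low counts, which kept 628 miRNA names and removed 57. The least abundant, rno-miR-433-5p, still had between 36 and 67 counts per library.

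Small RNA was sequenced in 3 groups of 4 libraries from cultured neurons of the cortex of embryonic day 17 Sprague Dawley rats. Lentivirus was added after 10 days in vitro and cells were lysed after 14. The virus delivered a short hairpin RNA that was non-targeting (shNTC, the reference), directed against Stau2 (shStau2) or directed against Pum2 (shPum2, an additional control for changes that any shRNA may bring). Staufen2, the product of Stau2, recognises RNA duplexes, whereas the Pum2 product recognises a short single-stranded motif in mRNAs. All 3 groups therefore carried a lentivirus and an shRNA, and no untransduced cells were among the libraries analysed here. Neither knockdown could be checked, because the tables hold small RNAs and no mRNA.

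Genes of the Dlk1-Dio3 region are expressed from only the maternal or only the paternal chromosome. Rtl1, a protein-coding gene derived from a retrotransposon, is expressed from the paternal copy, while the maternal copy gives a noncoding transcript that runs through Rtl1 in the opposite direction and carries miRNA hairpins. miRNAs whose hairpins lie opposite Rtl1 match its mRNA perfectly, and some are known to direct its cleavage. This comes in addition to the usual partial pairing of miRNAs with other mRNAs. The region's miRNAs are abundant in brain and neurons.

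In the RefSeq annotation of the GRCr8 assembly the 5 hairpins share the plus strand of chromosome 6, in the order Mir337, Mir433, Mir127, Mir434, Mir136. The last of them starts 10.2 kb from the start of Mir337. Of the 5, 4 lie within the bounds annotated for Rtl1, and Mir337 does not. The deposited counts were made on Rnor 6.0, per the submitters' processing notes, so the GRCr8 positions below describe the annotation only. RefSeq holds mature sequences for 8 of the 10 names, shown here 5′ to 3′ because the seed is the part of a miRNA that selects its targets. Capitals mark the seed, bases 2 to 8.
rno-miR-337-5p (chr6:134321170-134321190): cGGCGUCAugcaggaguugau
rno-miR-337-3p (chr6:134321201-134321223): uUCAGCUCcuauaugaugccuuu
rno-miR-433-5p (chr6:134327369-134327390): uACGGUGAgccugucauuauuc
rno-miR-433-3p (chr6:134327421-134327442): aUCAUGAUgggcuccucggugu
rno-miR-127-3p (chr6:134328510-134328531): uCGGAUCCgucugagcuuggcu
rno-miR-434-5p (chr6:134330413-134330435): aGCUCGACucaugguuugaacca
rno-miR-434-3p (chr6:134330451-134330472): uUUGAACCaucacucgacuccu
rno-miR-136-3p (chr6:134331383-134331404): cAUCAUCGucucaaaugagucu
The other names are rno-miR-127-5p and rno-miR-136-5p.

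These 8 sequences have 8 different seeds, and none of their seeds occurs in any other of the 693 mature names in the RefSeq table, so the members do not form a seed family. The longest run that any 2 of them have in common is UUUGAACCA, 9 bases, found in both arms of miR-434. The other pairs of members share runs of at most 6 bases, such as GCUCCU in miR-337-3p and miR-433-3p. The hairpins of miR-434 and miR-337 are printed, with both mature arms in capitals, because the balance between their arms is described in detail further on.
Mir434 (chr6:134330402-134330482): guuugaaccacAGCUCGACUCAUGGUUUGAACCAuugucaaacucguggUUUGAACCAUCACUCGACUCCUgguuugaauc
Mir337 (chr6:134321142-134321238): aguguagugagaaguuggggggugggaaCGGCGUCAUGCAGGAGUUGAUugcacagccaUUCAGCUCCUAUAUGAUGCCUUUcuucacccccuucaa
The opposite strand of both hairpins also has an annotated miRNA, rno-miR-3543 at Mir434 and rno-miR-3544 at Mir337, a point noticed after the values were seen.
rno-miR-3543 (chr6:134330451-134330473, minus strand): cAGGAGUCgagugaugguucaaa
rno-miR-3544 (chr6:134321165-134321187, minus strand): aACUCCUGcaugacgccguuccc
The first is complementary to all 22 bases of miR-434-3p and the second to 18 bases of miR-337-5p. The sources used here do not state whether counting used the strand, and without strand a miRNA and its antisense partner cannot be told apart. The count of miR-3543 was 4.17% to 5.02% of that of miR-434-3p over the 12 libraries, and the count of miR-3544 was 8.85% to 13.5% of that of miR-337-5p.

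Library totals lay between 3836349 and 5415763 counts, of which 3804798 to 5378626 were of miRNAs. Levels are CPM, the count relative to the library's miRNA counts, scaled by trimmed means (TMM). They are shares of a library, not amounts per cell. A floor of 3 counts stood for 0.558 to 0.788 CPM before that scaling and covers counting error only. In a bulk culture, fewer cells of a type and less RNA per cell cannot be told apart. The 10 neuron-enriched miRNAs used to check the label summed to between 322287 and 388926 CPM, against 4870 to 9858 CPM for 7 astrocyte-linked miRNAs. A few names led the neuronal sum: miR-9a-5p averaged 189436 CPM in shNTC, miR-128-3p 88700 and miR-9a-3p 39224, while miR-124-3p averaged 4862. The sums therefore do not measure the fraction of neurons in the cultures. None of the 10 neuronal names was called in any comparison by the tests described below, with or without a replicate block. The astrocyte-linked sum was 7016 to 9858 CPM with the non-targeting shRNA, 4870 to 6397 CPM in shStau2 and 5688 to 7858 CPM in shPum2. The sum of 4 microglial or blood miRNAs was 136 to 193, 98.3 to 140 and 140 to 200 CPM in the same order. Sums of 4 oligodendrocyte-linked miRNAs (223 to 408 CPM) and of 9 vessel or mesenchyme miRNAs (589 to 1124 CPM) overlapped between all groups. With the replicate block, 4 of the 7 astrocyte-linked names were called lower in shStau2 against shNTC, 1 in shPum2 against shNTC and 0 in shStau2 against shPum2, as were 1, 0 and 2 of the 4 microglial or blood names and 1 (miR-126a-5p), 0 and 0 of the 9 vessel or mesenchyme names. The shares called among all names, in either direction, were 6.21%, 0.159% and 3.98% in these comparisons. The blood-linked miR-142-5p and miR-451-5p did not pass the filter. The part of these other cell types in the differences below was not tested. The labels call the 4 libraries of a group biological replicates but do not say whether a number marks a shared preparation, so p-values measure the spread between these libraries.

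Together the 10 members made up 1.44% to 1.77% of all miRNA counts, and this share was similar in the groups: 1.61% ± 0.116 in shNTC, 1.65% ± 0.0991 in shStau2 and 1.62% ± 0.106 in shPum2 (mean ± SD, n = 4). Although the 5 hairpins lie close together on the same strand, their counts were far from equal. Over the 12 libraries miR-127 supplied 62.7% ± 1.97 of the members' counts and miR-434 31.2% ± 1.94. The remaining hairpins were minor: 4.17% ± 0.764 came from miR-136, 1.24% ± 0.0834 from miR-337 and 0.744% ± 0.0687 from miR-433. Position along the locus gave no order, since the lowest of the 5 hairpins, miR-433, is next in their order to the highest, miR-127.

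**Figure D1:**
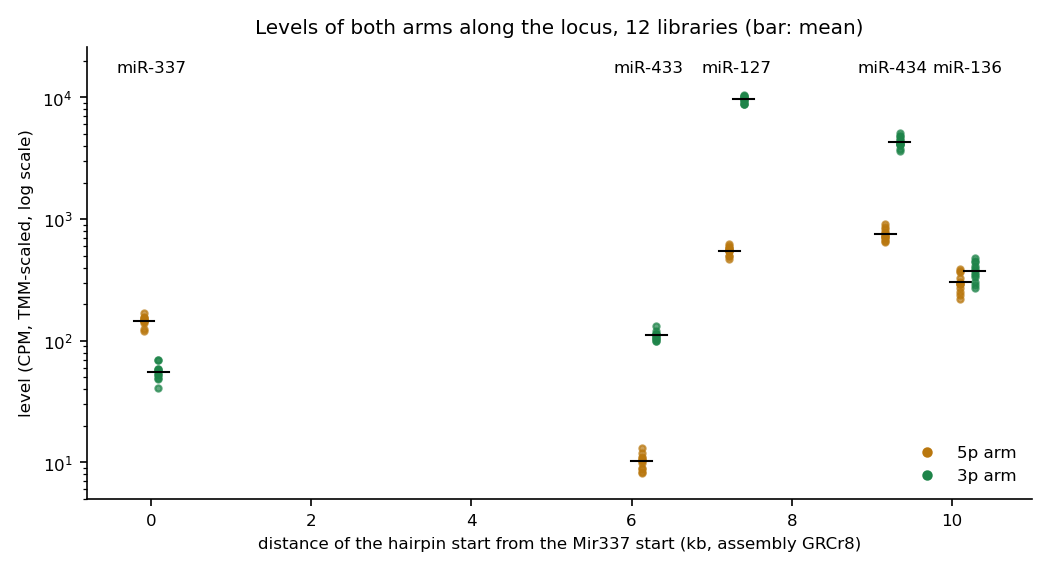
Level of each arm (CPM on a log axis, 12 libraries as points, bar for the mean) against the distance of its hairpin from the start of Mir337 in kb, with the 5p and 3p points drawn slightly apart. The 3p arms of miR-127 and miR-434 stand highest, and miR-337 is the only hairpin of the 5 whose 5p arm has the higher mean.

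Ordered by mean level over the 12 libraries, the members were miR-127-3p (rank 16 of 628 tested names), miR-434-3p (rank 31), miR-434-5p (93), miR-127-5p (99), miR-136-3p (121), miR-136-5p (136), miR-337-5p (192), miR-433-3p (222), miR-337-3p (283) and miR-433-5p (448). Neighbours in this order overlapped over the 12 libraries for miR-127-5p and miR-136-3p, which only touched, for miR-136-3p and miR-136-5p, and for miR-337-5p and miR-433-3p. All other neighbours were separate. The most abundant member was also the steadiest: the SD of miR-127-3p within groups was 0.08 on the log2 scale, smaller than that of 97.9% of 623 names.

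The counts of the arms were unequal, and each hairpin had its own balance. The 3p arm gave 94.6% ± 0.296 of the counts of miR-127 in shNTC, 91.3% ± 1.57 of miR-433 and 84.6% ± 2.58 of miR-434 (n = 4). For miR-136 the arms were closer, with 58.5% ± 4.64 from 3p. For miR-337 the 5p arm dominated and 3p gave 29.9% ± 1.38.

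No member was called in any of the 3 comparisons by edgeR's quasi-likelihood test, with p-values adjusted over all 628 names and a threshold of 0.05. Across all names this test called 0.318% in shStau2 against shNTC, 0% in shPum2 against shNTC and 0.478% in shStau2 against shPum2, so a count of 0 of 10 is near the background. At an unadjusted p under 0.05 there were 2 of 10 (miR-136-3p and miR-337-3p), 0 of 10 and 1 of 10 (miR-434-3p) members, beside 71, 9 and 59 of all 628 names, and DESeq2 without a block also called 0 members in each. Libraries with the same replicate number deviated together, and with that number as a block the background was 6.21%, 0.159% and 3.98%. With the block 0 of 10 members were called in shStau2 against shNTC, 0 of 10 in shPum2 against shNTC and 1 of 10, miR-434-3p, in shStau2 against shPum2. The comparisons share libraries (shStau2 or shNTC or shPum2 enters 2 of them each), so they are not independent of each other. In shStau2 against shNTC 4 members had positive and 6 negative log2 fold changes, with a median of -0.07, where all tested names had 317 positive, 311 negative and a median of 0.0033. In shPum2 against shNTC the members split 5 to 5 with a median of 0.02, beside 316 to 312 and 0.0021 over all names. In shStau2 against shPum2 they split 4 to 6 with a median of -0.07, beside 321 to 307 and 0.0053.

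**Figure D2:**
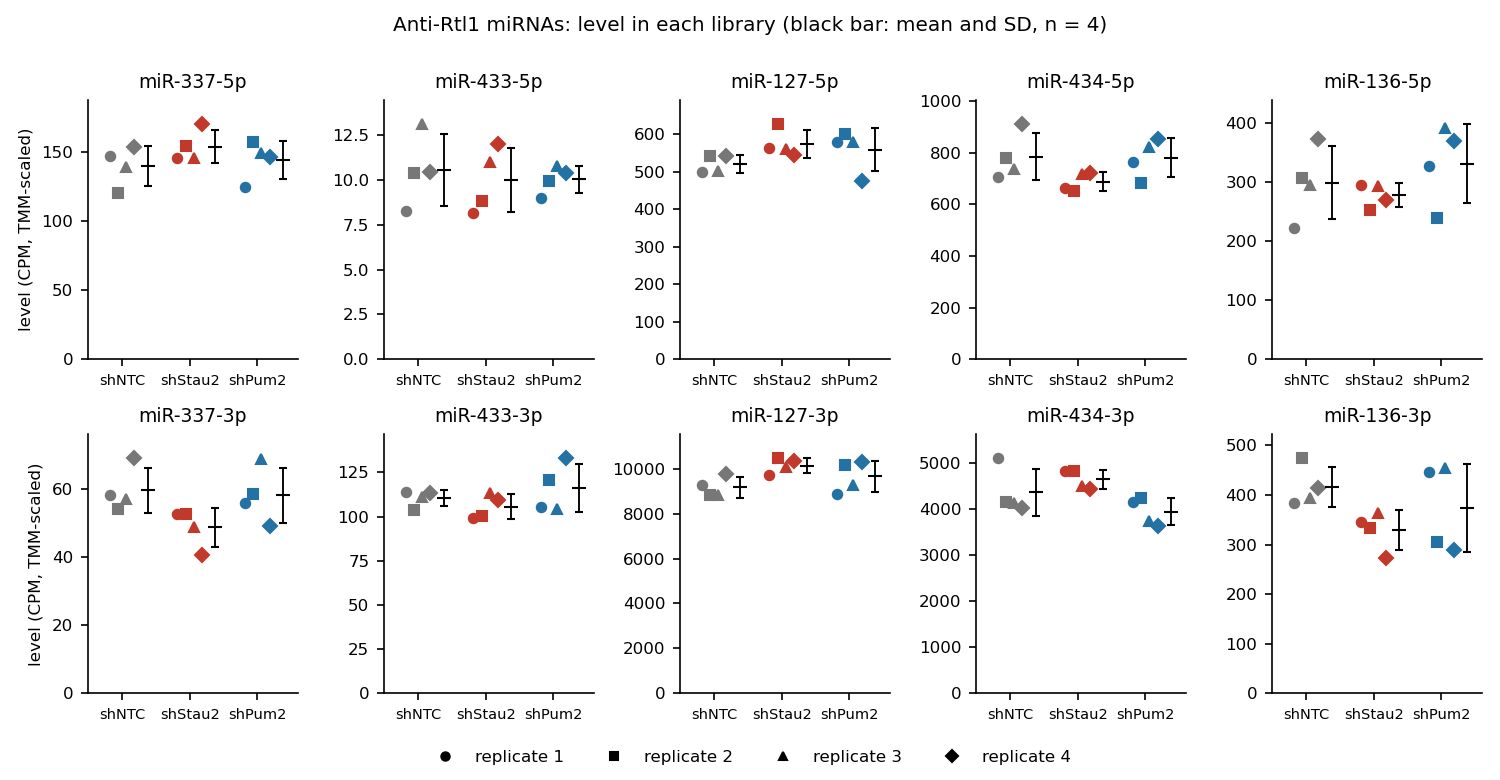
Level of each member in each library (CPM, TMM-scaled, axis from 0), by group, with marker shape for replicate number and a bar for mean and SD (n = 4). In shStau2 the 4 libraries lie above all 4 of shNTC for miR-127-5p and below them for miR-136-3p and miR-337-3p, and for miR-434-3p they lie above all 4 of shPum2.

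miR-434-3p, the second most abundant member, gave the only level called. Its levels in replicates 1 to 4 were 5120, 4171, 4144 and 4040 CPM in shNTC. In shStau2 they were 4832, 4825, 4518 and 4437 CPM, and in shPum2 4164, 4241, 3746 and 3649 CPM. All 4 shStau2 libraries were above all 4 shPum2 libraries, and within each replicate number the difference was 0.19 to 0.28 on the log2 scale. The shNTC libraries overlapped both other groups: replicate 1 was the highest of all 12, and the other 3 were between 4040 and 4171 CPM, below all of shStau2 and above replicates 3 and 4 of shPum2. The means were 4653 ± 205 CPM in shStau2 and 3950 ± 296 CPM in shPum2, a log2 fold change of 0.24 (SE 0.09, 95% interval 0.05 to 0.42). edgeR gave an adjusted p of 0.451 without the block and 0.0439 with it (log2 fold change 0.24, SE 0.07). The blocked call did not hold when libraries scaled to their totals were used (adjusted p = 0.0820), nor without the replicates numbered 1 (0.149), 3 (0.258) or 4 (0.198). Without number 2 the adjusted p was 0.0475. Against shNTC (4369 ± 504 CPM) the log2 fold change was 0.09 in shStau2 (SE 0.09, adjusted p = 0.766) and -0.15 in shPum2 (SE 0.09, adjusted p = 0.982), neither called.

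The other arm of the same hairpin lay the other way. miR-434-5p measured 708, 779, 739 and 913 CPM in shNTC, 663, 653, 717 and 723 CPM in shStau2, and 763, 684, 824 and 855 CPM in shPum2. It was lower in shStau2 within 4 of 4 replicate numbers against either other group, although the groups overlapped. No share over all names or hairpins is given for such agreement within replicate numbers, here or below. The log2 fold change of shStau2 was -0.19 against shNTC (SE 0.10, 95% interval -0.40 to 0.03, adjusted p = 0.509, edgeR) and -0.18 against shPum2 (SE 0.10, adjusted p = 0.566, edgeR). Over all 12 libraries the log2 levels of miR-434-3p and miR-434-5p had a Pearson r of -0.78. This is a description only, since the libraries share groups and replicate numbers. The replicate numbers themselves went opposite ways in the arms. The mean log2 deviation from the group mean was 0.12 in number 1 and -0.09 in number 4 for miR-434-3p. For miR-434-5p it was -0.08 in number 1 and 0.14 in number 4. In the other hairpins the arms had r of 0.23 (miR-127), 0.37 (miR-136), -0.18 (miR-337) and 0.28 (miR-433).

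The ratio of the arms does not depend on how libraries are scaled, because both arms are counted in the same library. It was tested with limma on log2 of 3p over 5p counts, with 0.5 added to each, across the 208 hairpins for which both arms passed the filter. Without the block 0 of 208 hairpins were called in each of the 3 comparisons (0%), and 23, 6 and 24 had an unadjusted p under 0.05 in shStau2 against shNTC, shPum2 against shNTC and shStau2 against shPum2. With the block the share called was 4.33% in shStau2 against shNTC, 0% in shPum2 against shNTC and 4.33% in shStau2 against shPum2. Among the 5 member hairpins the block called 0, 0 and 1 in the same order.

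The hairpin called was miR-434. Its 3p arm made up 87.9%, 84.3%, 84.9% and 81.6% of its counts in shNTC replicates 1 to 4. In shStau2 the share was 87.9%, 88.1%, 86.3% and 86.0%, and in shPum2 84.5%, 86.1%, 82.0% and 81.0%. The share was higher in shStau2 than in shPum2 within 4 of 4 replicate numbers, and higher than in shNTC within 4 of 4, while the ranges overlapped in both comparisons. In replicate 1 the shares in shStau2 and shNTC were nearly equal, at 87.94% and 87.85%. The log2 ratio differed by 0.42 between shStau2 and shPum2 (SE 0.14, 95% interval 0.11 to 0.72), with an adjusted p from limma of 0.313 without the block and 0.0223 with it (SE 0.09). The blocked adjusted p was 0.0828 without replicates numbered 1, 0.000846 without number 2, 0.171 without number 3 and 0.0983 without number 4, so 3 of the 4 omissions end the call. Against shNTC the ratio differed by 0.28 in shStau2 (SE 0.14, limma adjusted p = 0.454, and 0.0796 with the block) and by -0.14 in shPum2 (SE 0.14, adjusted p = 0.944). The count of miR-3543, the antisense name at this hairpin, was 4.55%, 4.56% and 4.86% of the count of miR-434-3p on average in shNTC, shStau2 and shPum2.

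**Figure D3:**
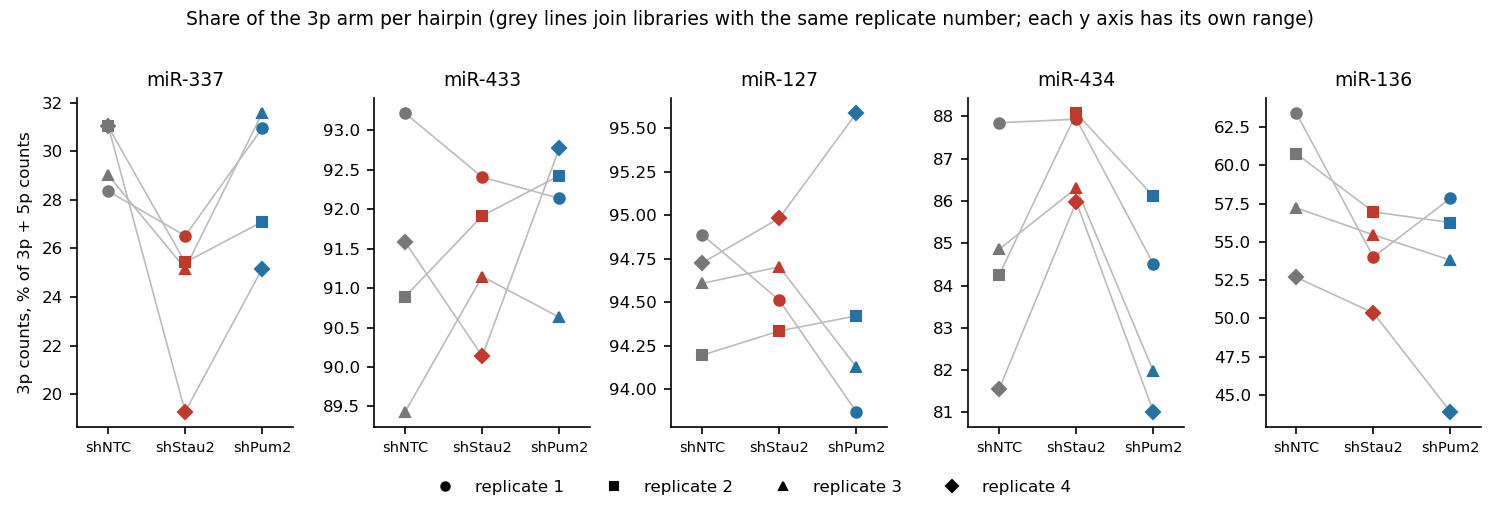
Share of 3p counts among the 3p and 5p counts of each hairpin, in percent, for each library by group; grey lines join libraries of the same replicate number, and each panel has its own axis range. The miR-434 share is higher in shStau2 than in shPum2 along all 4 lines, and the miR-337 share is lower in shStau2 than in shNTC along all 4.

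miR-337, the hairpin outside Rtl1 and the only one with a dominant 5p arm, had the smallest unadjusted p of the 5 in shStau2 against shNTC and was not called with all libraries. Its 3p share was 28.4%, 31.0%, 29.0% and 31.1% in shNTC replicates 1 to 4, 26.5%, 25.4%, 25.2% and 19.3% in shStau2, and 31.0%, 27.1%, 31.6% and 25.2% in shPum2. All 4 shStau2 libraries were below all 4 shNTC libraries, and shStau2 replicate 4 was the lowest of the 12. Such a separation occurred for 1 of the 5 member hairpins in this comparison, and for 5.29% of all 208 hairpins. In shPum2 against shNTC and in shStau2 against shPum2 it occurred for none of the 5, and for 2.88% and 3.85% of all. The log2 ratio differed between shStau2 and shNTC by -0.43 (SE 0.15, 95% interval -0.74 to -0.12, limma adjusted p = 0.242, and 0.0512 with the block). Without the replicates numbered 1 the blocked limma fit called this difference for miR-337 (-0.53, adjusted p = 0.0392) and also that of miR-434 (0.37, adjusted p = 0.0290). Without number 2, 3 or 4 it called neither: the adjusted p was 0.113, 0.140 and 0.254 for miR-337 and 0.161, 0.168 and 0.360 for miR-434. Without number 4 the difference was -0.27 for miR-337, and for miR-434 it was 0.22. Between shStau2 and shPum2 the difference was -0.35 (SE 0.15, limma adjusted p = 0.412, and 0.135 with the block). The mean levels of the arms lay on opposite sides of the control. miR-337-3p was 58.3, 54.1, 57.0 and 69.2 CPM in shNTC and 52.6, 52.7, 49.0 and 40.8 CPM in shStau2, while miR-337-5p averaged 140 ± 14.5 and 154 ± 11.8 CPM. The miR-337-5p libraries of shNTC (120 to 154 CPM) and shStau2 (146 to 171 CPM) overlapped, with shStau2 higher within 3 of 4 replicate numbers. The log2 fold changes were -0.29 for miR-337-3p (SE 0.13, 95% interval -0.58 to -0.0033, edgeR adjusted p = 0.422) and 0.14 for miR-337-5p (SE 0.11, adjusted p = 0.721). In shPum2 miR-337-3p was 49.3 to 68.9 CPM and miR-337-5p 125 to 157 CPM, and both overlapped shNTC.

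The arms of miR-136, the last of the 5 hairpins, had the largest within-group SDs of the 10 members, 0.24 (3p) and 0.26 (5p) on the log2 scale, near the median of 0.25 over all names. miR-136-3p measured 384, 475, 393 and 414 CPM in shNTC and 346, 334, 364 and 273 CPM in shStau2, with no overlap. In shPum2 it was 447 and 455 CPM in replicates 1 and 3 and 306 and 288 CPM in replicates 2 and 4. The log2 fold change of shStau2 against shNTC was -0.34 (SE 0.15, 95% interval -0.66 to -0.02, edgeR adjusted p = 0.398, and 0.112 with the block). For miR-136-5p the shNTC libraries alone ran from 222 to 372 CPM, and they overlapped both the shStau2 libraries (253 to 294 CPM) and the shPum2 libraries (238 to 390 CPM). The 3p share of miR-136, 58.5% ± 4.64 in shNTC, averaged 54.2% ± 2.83 in shStau2 and 52.9% ± 6.26 in shPum2 (SD, n = 4). This share was lower than in shNTC within 4 of 4 replicate numbers in both knockdown groups, which share the same controls. The log2 ratio differed by -0.26 in shStau2 (SE 0.17, limma adjusted p = 0.555, and 0.113 with the block) and by -0.33 in shPum2 (SE 0.17, adjusted p = 0.944, and 0.136 with the block).

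miR-127-3p, known with miR-136 as an early example of a miRNA that guides cleavage of Rtl1 mRNA, differed little. Its levels were 9277, 8812, 8811 and 9759 CPM in shNTC, 9696, 10470, 10051 and 10328 CPM in shStau2, and 8890, 10181, 9282 and 10285 CPM in shPum2. It was higher in shStau2 than in shNTC within 4 of 4 replicate numbers, by 0.06 to 0.25 on the log2 scale, and the groups overlapped by shNTC replicate 4 alone. The log2 fold change was 0.15 (SE 0.07, 95% interval -0.0037 to 0.29, edgeR adjusted p = 0.463, and 0.157 with the block). For miR-127-5p the shStau2 libraries, 545 to 629 CPM, were all above those of shNTC, 500 to 543 CPM, the nearest libraries being at 545.5 and 543.3 CPM. Its log2 fold change was 0.14 (SE 0.10, edgeR adjusted p = 0.632). With both arms on the same side, the arm ratio of miR-127 differed by 0.0080 (95% interval -0.21 to 0.23, limma).

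miR-433 showed no separation of groups. miR-433-3p was 104 to 114 CPM in shNTC, 99.4 to 113 CPM in shStau2 and 104 to 133 CPM in shPum2. miR-433-5p was 8.28 to 13.1, 8.17 to 12.0 and 9.01 to 10.8 CPM, with replicate 1 the lowest of each group. For shStau2 against shNTC the 95% interval of the log2 fold change was -0.30 to 0.17 for miR-433-3p and -0.47 to 0.31 for miR-433-5p, so differences as large as those of most other members lie within it.

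Counted over the members, 3 of 10 had levels that did not overlap between shStau2 and shNTC (miR-127-5p, miR-136-3p and miR-337-3p), beside 9.55% of all 628 names. In shStau2 against shPum2 this held for 1 of 10 (miR-434-3p), beside 4.94%, and in shPum2 against shNTC for 0 of 10, beside 1.11%. shPum2 against shNTC had log2 fold changes from -0.15 (miR-136-3p) to 0.15 (miR-136-5p), and edgeR's adjusted p was 0.982 or 0.990 for the 10 members, with 9 of 628 names at an unadjusted p under 0.05.

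**Figure D4:**
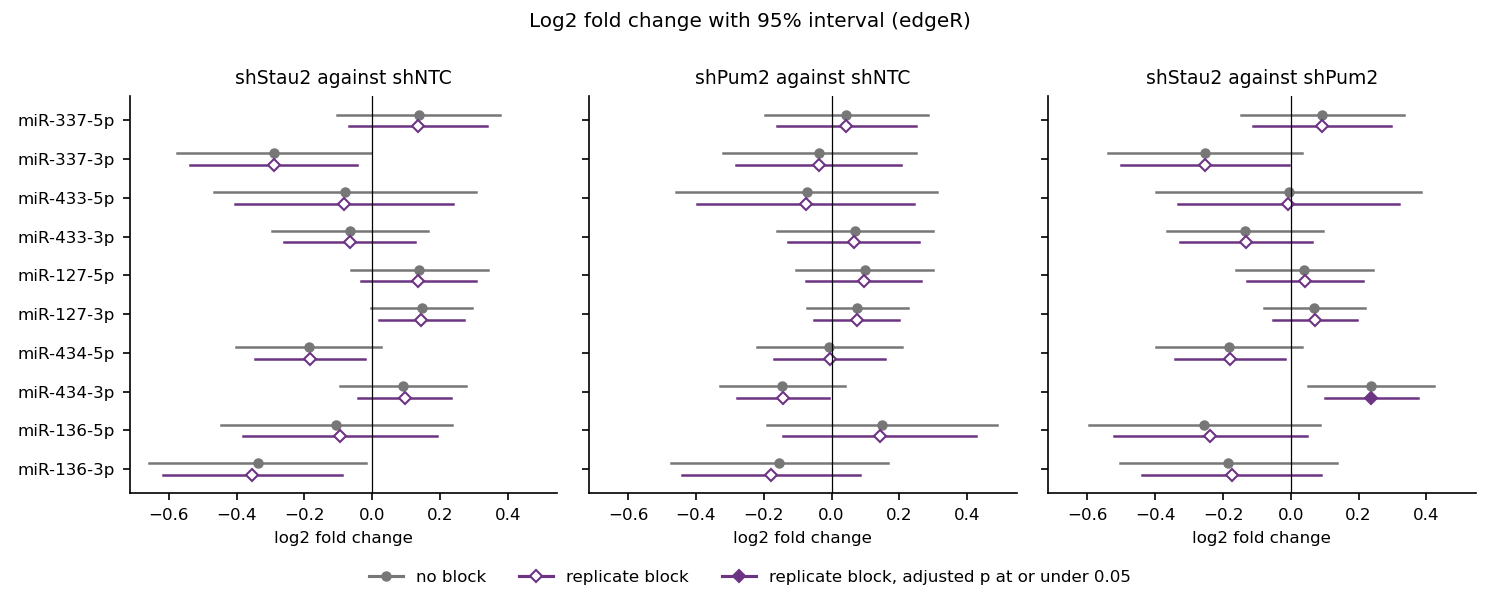
Log2 fold change of each member with its 95% interval from edgeR, without (grey) and with (purple) the replicate block, for the 3 comparisons. The filled diamond, miR-434-3p in shStau2 against shPum2, is the only estimate with an adjusted p under 0.05.

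**Figure D5:**
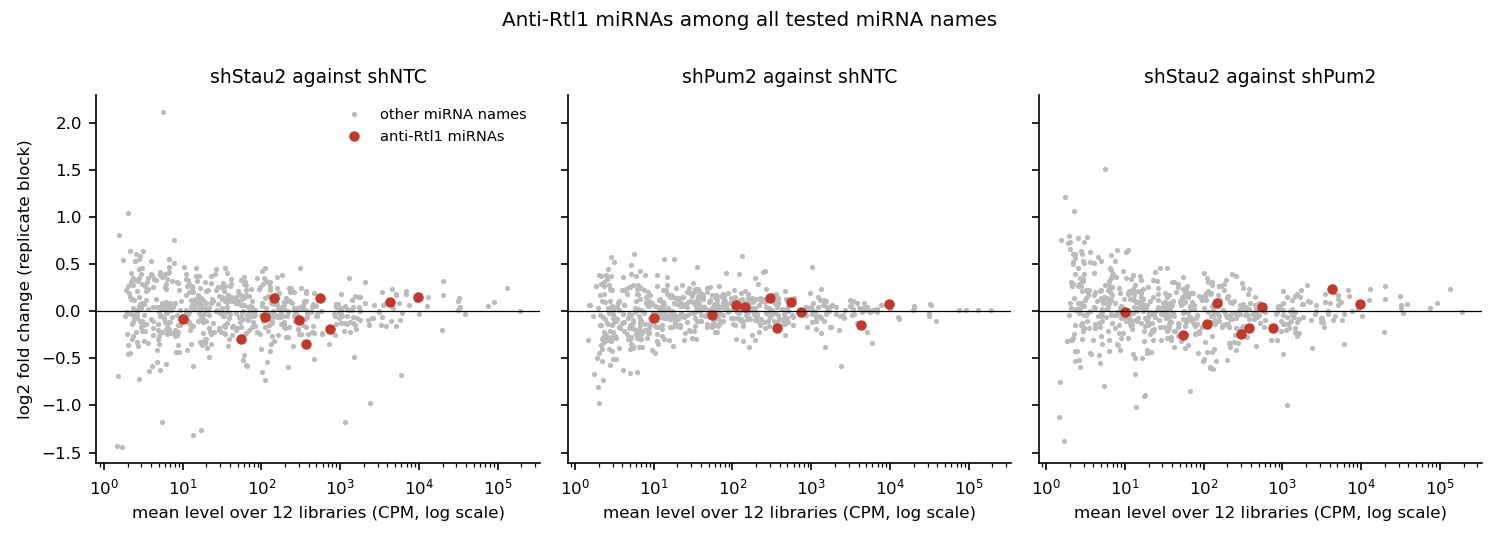
Log2 fold change with the replicate block against mean level over 12 libraries (CPM, log axis) for the 628 tested names, with the 10 members in red. The members stay between -0.35 and 0.24 in all 3 comparisons.

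Across libraries the members' levels were related in both directions. miR-136-5p had r of 0.82 with miR-434-5p and -0.81 with miR-434-3p, and miR-127-3p had r of -0.83 with miR-136-3p and 0.78 with miR-337-5p (log2 levels, 12 libraries). These are descriptions of points that share groups, replicate numbers and scaling. For each hairpin's major arm, the most similar of the 446 names of other hairpins with a mean of at least 10 CPM were picked by Pearson r. For miR-434-3p they were miR-31a-5p (r = 0.90), miR-344b-1-3p (0.84) and miR-3543 (0.84), the last being its antisense partner. miR-31a-5p is on the astrocyte-linked list, whose sum averaged 8361, 5768 and 6664 CPM in shNTC, shStau2 and shPum2. miR-434-3p itself averaged 4369, 4653 and 3950 CPM in the same order. Of the summed 8361 CPM in shNTC, miR-31a-5p made up only a small part, 152 CPM. The part of astrocytes in this likeness was not tested. For miR-127-3p the most similar names were miR-296-3p (0.88), miR-298-5p (0.86) and miR-505-5p (0.84). For miR-337-5p they were miR-505-5p (0.85), miR-326-3p (0.82) and miR-935 (0.82). For miR-136-3p they were miR-340-5p (0.94), miR-29c-3p (0.92) and miR-3556b (0.90). Apart from miR-3543, Dlk1-Dio3 names were among the nearest only for miR-433-3p, with miR-493-3p (0.81) and miR-431 (0.77), after miR-342-5p (0.84).

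Other miRNAs of the anti-Rtl1 transcript or beside it gave no call with or without the block: 0 of 5 names (miR-3544, miR-431, miR-540-3p, miR-540-5p and miR-665) in each comparison. miR-431, which also lies opposite Rtl1, was 303 ± 8.76 CPM in shNTC, 266 ± 29.7 CPM in shStau2 and 311 ± 48.5 CPM in shPum2, with a log2 fold change of -0.19 for shStau2 against shNTC (edgeR adjusted p = 0.595). Of the other Dlk1-Dio3 names, 75 of 77 were tested. In shStau2 against shNTC they had 25 positive and 50 negative log2 fold changes with a median of -0.08. With the block 5 of 75 were called, all lower. Over all 628 names the block called 6.21% in either direction, 15 higher and 24 lower. The log2 fold change was -0.25 for miR-409b, -0.48 for miR-758-3p, -0.41 for miR-380-3p, -0.58 for miR-495 and -0.42 for miR-543-3p. In shStau2 against shPum2 they had 22 positive and 53 negative with a median of -0.08. Here miR-495 was called lower without the block, and the block called 4 of 75 lower. Over all 628 names it called 3.98% in either direction, 10 higher and 15 lower. For the 4 names the log2 fold change was -0.30 for miR-409b, -0.53 for miR-380-3p, -0.85 for miR-495 and -0.43 for miR-543-3p. In shPum2 against shNTC the split was 40 to 35, the median was 0.0089, and 0 were called.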

How the data were processed

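The authors deposited, per sample, whole-number counts per small RNA name (805 names, 685 of miRNAs), not normalised. Per the labels' protocols, RNA isolation was done as a batch and library preparation included unique molecular identifiers. Per the submitters' processing notes, Rnor 6.0 was the genome build. The aligner, the counter, the use of strand, and whether counts are molecules or reads are not given in the sources used here, so floors from counts cover counting error only. Intervals come from the fits across libraries.

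miRNA counts of all 12 libraries were fitted jointly by group with edgeR 4.0.16 in R 4.3.3 (TMM scaling, filterByExpr, robust quasi-likelihood test). Arm ratios were fitted with limma 3.58.1, with the log2 CPM of the less abundant arm as trend. P-values were two-sided and Benjamini-Hochberg adjusted over all names or hairpins, with a threshold of 0.05. The edgeR and limma fits without the replicate block were tested on simulated data, and the fits with the block were not. Same-numbered libraries of different groups deviated together: the 12 such pairs had r of 0.36 to 0.57, each over 0.1, and the 36 others -0.41 to 0.14. The numbers were therefore taken to pair the libraries in the fits with a replicate block, while the main fits were by group only. The labels give only the numbers. DESeq2 1.42.0, other scalings and filters, other pseudocounts and omission of each library were alternatives.

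The members and lists were chosen with earlier results of these data known. All 10 members are named, with 5 neighbouring names, called names of the other Dlk1-Dio3 miRNAs (at most 8) and the 3 names of other hairpins most correlated with each major arm.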

Additional observations from a re-analysis of the deposited data

Results flagged for a closer look

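Of 45 groups of 4 libraries checked for a library far from the others (30 of member levels and 15 of 3p shares), 1 stood out: rno-miR-434-3p in shNTC, where replicate 1 was at 5120 CPM and the gap to the next library was 0.879 of the group's range, above the 95% critical value of Dixon's test. Chance alone flags about 1 in 20 such groups. Without that library the log2 fold change of shStau2 against shNTC was 0.18 for miR-434-3p (edgeR adjusted p = 0.399), beside 0.09 with it.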

How the results depend on the processing

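Of 1170 alternative values of single members and hairpins, 1102 kept direction and stayed uncalled, 9 were newly called and 59 changed sign. None of the 59 was called and none was above 0.112 in size. No call could be lost, because the main fits called no member and no member arm ratio. With the replicate block 1 member and 1 arm ratio were called in shStau2 against shPum2, both of miR-434, and 0 without it. DESeq2 with the replicate block also called 1 member (adjusted p = 0.0375), as did the replicate block with RLE size factors (1, adjusted p = 0.0473) or upper-quartile factors (1, adjusted p = 0.0127). The cause was not tested. These scalings with the block, and the blocked omissions for arm ratios, were chosen after seeing the data. Over omissions of single libraries or replicate numbers, members called in shStau2 against shPum2 ranged from 0 to 1, arm ratios called there from 0 to 1, and arm ratios called in shStau2 against shNTC from 0 to 2. The block changed no other call.

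Sign changes were limited to small log2 values. In shStau2 against shPum2, miR-127-5p was -0.014 with library totals and -0.016 with totals and the replicate block, and miR-433-5p was 0.0093 with a minimum mean of 10 CPM, 0.029 with upper-quartile factors and 0.027 with these and the block. In shPum2 against shNTC, miR-434-5p was 0.0025 with only the 8 libraries compared and 0.0062 without a filter. Over omissions, shStau2 against shNTC ranged from -0.26 to 0.025 for miR-136-5p, -0.18 to 0.044 for miR-433-5p, -0.030 to 0.047 for the miR-127 arm ratio and -0.097 to 0.13 for the miR-433 arm ratio. In shPum2 against shNTC the ranges were -0.14 to 0.11 for miR-337-3p, -0.049 to 0.15 for miR-337-5p, -0.0062 to 0.14 for miR-433-3p, -0.18 to 0.053 for miR-433-5p, -0.057 to 0.074 for miR-434-5p, -0.13 to 0.067 for the miR-127 arm ratio and -0.17 to 0.026 for the miR-337 arm ratio. In shStau2 against shPum2 they were -0.030 to 0.065 for miR-127-5p, -0.11 to 0.077 for miR-433-5p, -0.032 to 0.14 for the miR-127 arm ratio, -0.10 to 0.17 for the miR-136 arm ratio and -0.20 to 0.013 for the miR-433 arm ratio. Depth limits miR-433-5p most, at 36 to 67 counts per library.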
